A study of Mus musculus with 8 samples.

Results

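Messenger RNA of 35 genes of the integrated stress response, made up of ATF4, CHOP and related regulators together with genes that ATF4 is known to switch on, was followed in mouse embryonic stem cells (ESCs) that carry or lack importin-13 (IPO13), a receptor that carries proteins both into and out of the nucleus. The genes were picked by symbol from the 23420 genes in the count tables, for their known place in the pathway. Earlier results of these data were known when the genes were chosen. Both ESC lines come from blastocysts of a 129 x C57BL/6 background and were grown on gelatin with LIF and without feeder cells. One line is wild type (IPO13+/+) and the other lacks IPO13 (IPO13-/-), and each was studied without treatment and after 125 µM hydrogen peroxide (H2O2) for 1 h with 2 h of recovery, which gave 4 groups of 2 libraries. The comparison asks how loss of IPO13 changes the transcriptional answer to oxidative stress. Since each genotype is represented by a line, differences between genotypes and between lines cannot be told apart, and nothing in the sources used here says whether the 2 libraries of a group come from separate cultures, so that the p-values measure the spread between these libraries, which may be technical.

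In the integrated stress response, kinases that sense amino acid shortage, misfolded protein in the endoplasmic reticulum, viral RNA or haem loss and oxidative damage phosphorylate the initiation factor eIF2. General translation then drops, while the mRNA of the transcription factor ATF4 is translated more. ATF4, with partners of the C/EBP family, raises genes for amino acid synthesis and uptake and for the charging of transfer RNA, along with feedback genes that restore translation and, under lasting stress, genes that favour cell death such as Ddit3, which encodes CHOP. Because ATF4 is set largely at the level of translation, the level of Atf4 mRNA is not a measure of ATF4 protein.

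Between 60397877 and 73789079 reads per library fell on genes. Ipo13 itself had 68.3 to 72.4 CPM (a gene's reads scaled to a common library size, after TMM scaling between libraries) in the 4 IPO13+/+ libraries and 24.9 to 25.9 CPM in the 4 IPO13-/- libraries, so that the libraries separated by their labels although Ipo13 reads remained. Marker sums are CPM scaled to the library total alone, without TMM scaling. The 8 stem cell markers examined, Pou5f1 and Nanog among them, summed to between 5790 and 6730 CPM. They reached 6430 to 6730 CPM in untreated IPO13+/+ libraries and 5960 to 6100 CPM in untreated IPO13-/- libraries. Summed markers of feeder fibroblasts reached at most 10.2 CPM, those of primitive endoderm 6.62 CPM and those of mesoderm 1.22 CPM. Trophoblast markers summed to 72 to 79.4 CPM in IPO13+/+ libraries against 83.1 to 98.6 CPM in IPO13-/- libraries, and neural markers to 20.4 to 23.3 CPM against 24.7 to 30.8 CPM. Within the stem cell, trophoblast and neural lists the genes differed in direction, here as mean CPM after TMM scaling in untreated cells. Among the stem cell markers, Dppa5a had 1940 CPM in IPO13+/+ and 1290 CPM in IPO13-/-, and Esrrb 970 and 803 CPM. Nanog had 527 and 569 CPM, Klf4 433 and 475 CPM, and Sox2 421 and 420 CPM. Tfap2c had 43.7 CPM in IPO13+/+ and 79.2 CPM in IPO13-/- against 32.1 and 13.6 CPM for Krt8. Nes had 12.3 and 20 CPM against 9.56 and 4.96 CPM for Sox1. The fibroblast gene Lum had at most 2 reads in any library and none in treated IPO13+/+ libraries, and every other marker had reads in each group. The 2 untreated IPO13+/+ libraries differed more from each other than those of the other groups, with a chi-square per gene of 15 against 2.26 to 6.59, and they enter the IPO13+/+ response, the untreated comparison of genotypes and the difference between the responses. In bulk RNA, fewer cells of a type and less RNA per cell cannot be told apart, and the part of these marker differences in the results on genotype was not tested. Of the 35 genes, 34 had at least 10 reads in some library. The exception was Fgf21, a stress hormone, with between 0 and 3 reads in each library, at or below the 3 reads taken as the limit of detection, and no fold change is given for it.

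ATF4 and C/EBP factors bind together at a composite element whose core reads TGATGNAAN, where N is any base. It was searched for on both strands in RefSeq promoter windows of GRCm38.p6, from 250 bases before to 50 bases after each start site. A window was at hand for 29 of the 35 genes, and 8 of these genes (27.6%) held a match: Nupr1, Chac1, Trib3, Fgf21, Vldlr, Asns, Aars and Gars. By window, 22.9% of the windows of these genes and 3.95% of all 32851 windows held one. Asns and Chac1 are among the genes in which such elements have been described, and a match is a description of the letters and not a binding site. The 250 bases before the start are shown for 4 genes that behaved differently below, namely Chac1 (chr2:119350992-119351241, plus strand), Nupr1 (chr7:126625471-126625720, minus strand), Asns (chr6:7693210-7693459, minus strand) and Aars (chr8:111033592-111033841, plus strand). They are written 5′ to 3′ along the gene, and capitals mark the matched 9 bases, which in Chac1, Nupr1 and Aars lie on the opposite strand and so read in reverse complement.
Chac1: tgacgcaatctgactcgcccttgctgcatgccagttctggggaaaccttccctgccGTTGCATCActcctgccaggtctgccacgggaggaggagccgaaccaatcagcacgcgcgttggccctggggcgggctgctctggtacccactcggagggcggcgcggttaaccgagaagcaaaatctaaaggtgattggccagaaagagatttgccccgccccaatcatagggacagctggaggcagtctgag
Nupr1: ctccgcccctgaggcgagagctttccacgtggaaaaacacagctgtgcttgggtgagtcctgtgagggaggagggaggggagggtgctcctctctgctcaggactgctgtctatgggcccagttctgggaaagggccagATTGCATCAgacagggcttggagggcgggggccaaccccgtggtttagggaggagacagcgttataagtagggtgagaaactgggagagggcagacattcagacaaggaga
Asns: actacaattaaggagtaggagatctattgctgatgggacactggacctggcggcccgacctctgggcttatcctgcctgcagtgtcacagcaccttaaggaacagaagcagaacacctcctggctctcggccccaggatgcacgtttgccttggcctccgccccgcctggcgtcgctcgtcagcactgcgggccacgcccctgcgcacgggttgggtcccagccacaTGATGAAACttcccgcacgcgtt
Aars: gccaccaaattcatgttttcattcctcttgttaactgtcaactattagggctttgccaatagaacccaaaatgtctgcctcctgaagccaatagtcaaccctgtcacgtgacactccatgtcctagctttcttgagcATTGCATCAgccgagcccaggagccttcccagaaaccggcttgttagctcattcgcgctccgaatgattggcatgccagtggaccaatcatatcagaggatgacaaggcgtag
The match lay 194 to 186 bases before the start in Chac1, 111 to 103 bases before it in Nupr1, 23 to 15 bases before it in Asns and 113 to 105 bases before it in Aars, which held another match after the start, outside the bases shown. Chac1 and Nupr1 rose with H2O2 in both genotypes, Asns passed the test in neither and Aars passed it in IPO13-/- cells, with the values given under their groups below. Ddit3 and Ddit4, which rose 2-fold or nearly so, had no match in their windows.

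In IPO13+/+ ESCs the regulators of the pathway and a few of its stress effectors rose with H2O2, while no gene of amino acid synthesis and 1 gene of transfer RNA charging passed the test. Tests were made with edgeR's quasi-likelihood method on the counts of all 8 libraries, FDR is the p-value adjusted by Benjamini-Hochberg over the 19424 genes tested, and fold changes are given on the log2 scale with their standard error (SE). At an FDR below 0.05, 13 of the 35 genes were higher after H2O2, where 11.5% of all tested genes were, and 2 were lower, where 13.8% of all tested genes were. Among the 12250 better expressed genes (average log2 CPM over 0), a range in which nearly all of the 35 lie, 15% were higher and 21.3% lower in IPO13+/+ ESCs, and 20.8% and 21.5% in IPO13-/- ESCs. The median log2 fold change of the 35 genes was 0.05, against 0 for all tested genes. With a change of at least 2-fold as well, 4 genes were higher (Ddit3, Chac1, Ddit4 and Slc6a9), where 2.75% of all tested genes passed both limits. In IPO13-/- ESCs, 16 genes were higher and 2 lower, against 14.9% and 14.4% of all tested genes, and the median was 0.13. Only Ddit4 was also 2-fold higher there, where 2.52% of all tested genes were. Ddit3 fell just short of that limit in IPO13-/- cells, and the 2-fold count therefore says little on its own about a difference between the genotypes.

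**Figure D1:**
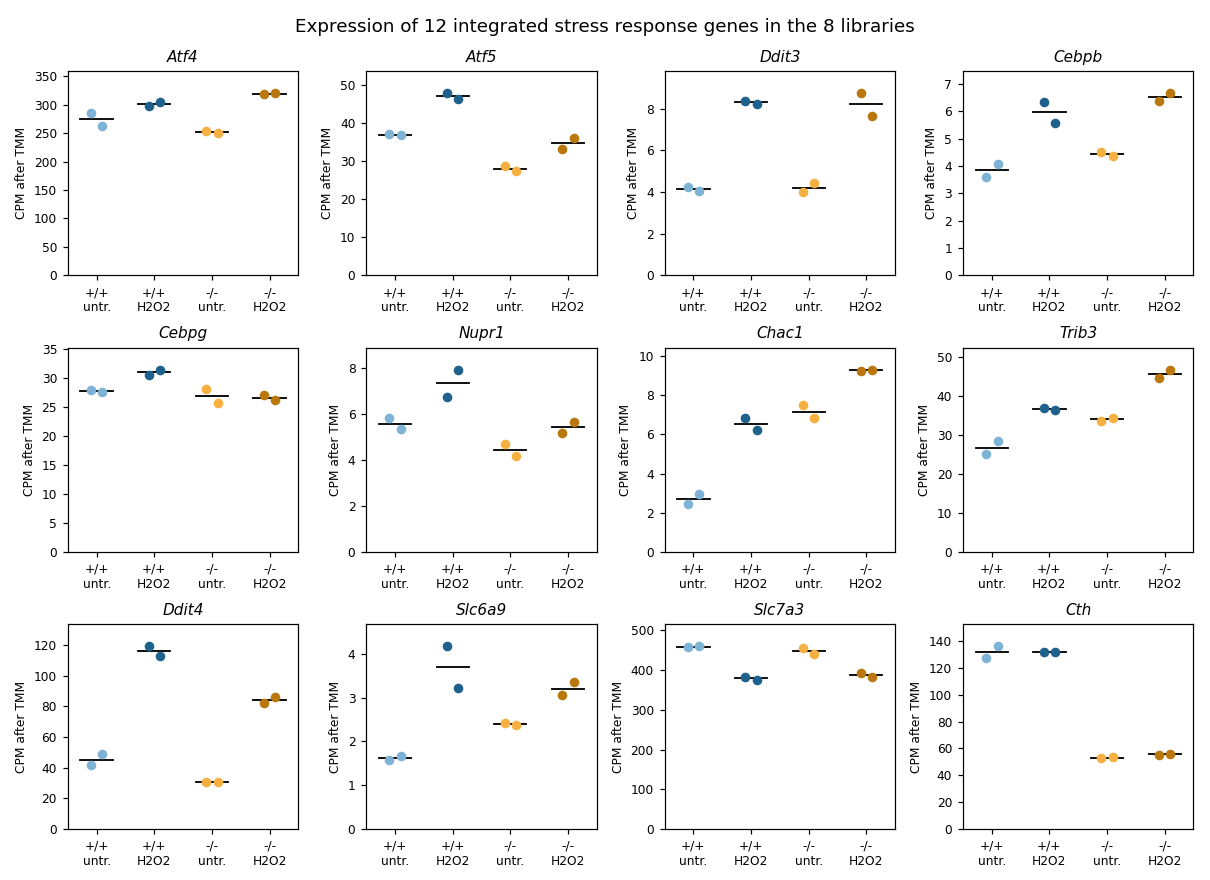
Normalised expression (CPM after TMM scaling, axis from 0) of 12 of the genes in each of the 8 libraries. Points are single libraries, short lines are means of 2 libraries, "untr." is untreated, and +/+ and -/- are the IPO13 genotypes. Chac1 stood at 2.44 and 2.97 CPM in untreated IPO13+/+ libraries and at 6.24 CPM or more in all other libraries, and Cth split by genotype with no visible step on H2O2.

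Among the 6 regulators, all 6 were higher after H2O2 in IPO13+/+ ESCs and 5 in IPO13-/- ESCs, with median log2 fold changes of 0.37 and 0.32. The shares of all tested genes that were higher were 11.5% and 14.9%, and 15% and 20.8% of the better expressed genes. Ddit3 (chr10:127290774-127296288, plus strand), which encodes CHOP, had 285 and 283 reads in untreated IPO13+/+ libraries and 570 and 569 after H2O2. In IPO13-/- libraries it had 302 and 275 reads untreated and 567 and 473 treated. Treated and untreated libraries did not overlap in either genotype, and the groups of the same treatment overlapped between genotypes. The log2 fold change was 1.00 (SE 0.09, FDR = 4.1e-10) in IPO13+/+ and 0.97 (SE 0.09, FDR = 8e-10) in IPO13-/-, and the difference between them was -0.03 (SE 0.12, FDR = 1). The end of Ddit3 overlaps that of Mars on the other strand. The strand setting of the counting is not given in the sources used here, so reads in the overlap could belong to either gene. The same limit holds for Atf5 (with Il4i1 and Nup62), Cebpb (Tmem189), Psph (Cct6a) and Shmt2 (Ndufa4l2), among others.

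Atf4 (chr15:80255184-80257541, plus strand), the central transcription factor of the pathway, moved far less. Its level was 286 and 263 CPM in untreated and 297 and 304 CPM in treated IPO13+/+ libraries, and 254 and 250 CPM in untreated and 318 and 321 CPM in treated IPO13-/- libraries. Untreated IPO13-/- libraries were the lowest and treated ones the highest of the 8. The log2 fold change with H2O2 was 0.13 (SE 0.04, FDR = 0.017) in IPO13+/+ and 0.34 (SE 0.04, FDR = 2.7e-07) in IPO13-/-. The IPO13+/+ call was lost when a library of that comparison was left out, except untreated replicate 1, with 0.07 (FDR = 0.21) as the lowest value, without untreated replicate 2. The difference between the genotypes was 0.21 (SE 0.06) and missed the threshold at an FDR of 0.055.

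Atf5, a relative of ATF4 that is also controlled by translation and acts on mitochondrial stress, had 37.1 and 36.9 CPM in untreated and 48.1 and 46.5 CPM in treated IPO13+/+ libraries. In IPO13-/- libraries it had 28.7 and 27.5 CPM untreated and 33.4 and 36.2 CPM treated. All IPO13-/- libraries lay below all IPO13+/+ libraries, and treated libraries lay above untreated ones within each genotype. Its log2 fold change with H2O2 was 0.35 (FDR = 3.3e-06) in IPO13+/+ and 0.31 (FDR = 4e-05) in IPO13-/-. Cebpb, a C/EBP partner of ATF4 and CHOP, rose by 0.63 and 0.56 on the log2 scale. Nupr1, a small stress-induced chromatin protein, rose by 0.40 and 0.29. Cebpg, another partner of ATF4, rose by 0.16 (FDR = 0.03) in IPO13+/+ and had a value of -0.01 (FDR = 0.92) in IPO13-/-, and the difference between these, -0.17, did not pass the test (FDR = 0.27). The Cebpg call was lost without IPO13+/+ untreated replicate 2 (0.15, FDR = 0.071), treated replicate 1 (0.18, FDR = 0.089) or treated replicate 2 (0.13, FDR = 0.23). The Nupr1 call was lost in IPO13+/+ without treated replicate 2 (0.27, FDR = 0.083), and in IPO13-/- without untreated replicate 1 (0.39, FDR = 0.059), untreated replicate 2 (0.22, FDR = 0.23) or treated replicate 2 (0.23, FDR = 0.2). DESeq2 also gave no call for Cebpg in IPO13+/+ (FDR = 0.056) or Nupr1 in IPO13-/- (FDR = 0.097), and limma-voom none for the latter (FDR = 0.074).

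The 7 feedback and stress effectors held the largest changes. Ddit4 (chr10:59949669-59951834, minus strand), which encodes the mTORC1 inhibitor REDD1, had 42 and 48.6 CPM in untreated and 119 and 113 CPM in treated IPO13+/+ libraries. In IPO13-/- libraries it had 30.4 and 30.6 CPM untreated and 82.2 and 85.8 CPM treated. The 4 groups did not overlap, with IPO13-/- cells below IPO13+/+ cells at both states. The log2 fold change was 1.35 (SE 0.05, FDR = 5.7e-17) in IPO13+/+ and 1.46 (SE 0.06, FDR = 1.7e-17) in IPO13-/-, and the difference of 0.11 (SE 0.08) did not pass the test (FDR = 0.57).

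Chac1 (chr2:119351229-119354381, plus strand) encodes an enzyme that degrades glutathione, a main antioxidant of the cell, and is among the most inducible ATF4 targets. It had 164 and 208 reads in untreated IPO13+/+ libraries, 465 and 431 in treated ones, 569 and 424 in untreated IPO13-/- libraries and 597 and 576 in treated ones. As normalised expression these were 2.44 and 2.97 CPM, 6.83 and 6.24 CPM, 7.51 and 6.83 CPM, and 9.22 and 9.31 CPM. Untreated IPO13-/- cells thus stood about where treated IPO13+/+ cells stood, and treated IPO13-/- cells stood above both. H2O2 raised Chac1 by 1.27 on the log2 scale (SE 0.10, FDR = 6e-11) in IPO13+/+ and by 0.37 (SE 0.08, FDR = 0.00073) in IPO13-/-.

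Of the other effectors, Trib3, a pseudokinase that restrains ATF4 and CHOP, rose by 0.45 on the log2 scale in IPO13+/+ and 0.43 in IPO13-/-. Vldlr, a lipoprotein receptor, rose by 0.42 (FDR = 0.041) in IPO13+/+ and had a value of 0.27 (FDR = 0.17) in IPO13-/-, while the difference was not past the threshold (FDR = 0.83). The Vldlr call in IPO13+/+ was lost without treated replicate 1, where the value was 0.25 (FDR = 0.45), and also without untreated replicate 1, at 0.31 (FDR = 0.23), or without IPO13-/- untreated replicate 1 or 2, at 0.44 (FDR = 0.061 and 0.06). It was lost with limma-voom (FDR = 0.092) and DESeq2 (FDR = 0.2) too. Ppp1r15a, which encodes the GADD34 subunit that returns eIF2 to its active form, had values of -0.02 (FDR = 0.8) and 0.11 (FDR = 0.058). In IPO13-/- it passed the test with the filterByExpr gene filter (FDR = 0.023) and with only the libraries compared (FDR = 0.041). Stc2, a secreted glycoprotein, had values of -0.10 and -0.25 and passed the test in neither genotype. In IPO13-/- its value ran from -0.44 (FDR = 0.0066, without treated replicate 2) to -0.06 (FDR = 0.78, without treated replicate 1), and it passed the test with library totals (FDR = 0.032), with only the libraries compared (FDR = 0.013) and without either untreated IPO13+/+ library (FDR = 0.029). Without Fgf21 the median of the 6 remaining effectors was 0.43 in IPO13+/+ and 0.32 in IPO13-/-.

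The 9 genes of amino acid and one-carbon synthesis showed no call in IPO13+/+ ESCs after H2O2. Their log2 fold changes ran from -0.07 (Asns) to 0.11 (Aldh18a1). Aldh18a1 did pass there with library totals (0.15, FDR = 0.021), the filterByExpr gene filter (0.13, FDR = 0.028) and the replicate number as a block (0.11, FDR = 0.045). Asns, the asparagine synthetase long used as a readout of ATF4, had 389 and 378 CPM untreated and 366 and 363 CPM treated. In IPO13-/- ESCs, Psat1, Phgdh and Psph, which together make serine, rose by 0.13, 0.22 and 0.16 on the log2 scale. Gpt2, a mitochondrial alanine transaminase, fell there by 0.24 on the log2 scale (FDR = 0.00075), from 30.2 and 29 CPM to 25.6 and 24.7 CPM, while IPO13+/+ libraries had 31.6 and 32.9 CPM untreated and 32 and 31.7 CPM treated. For none of these 4 genes did the difference between the genotypes pass the test, the FDR being 0.32 for Psat1, 0.16 for Phgdh, 0.52 for Psph and 0.11 for Gpt2. The calls of Psat1 and Psph in IPO13-/- were lost without untreated replicate 1 (0.12, FDR = 0.13, and 0.15, FDR = 0.18) or treated replicate 2 (0.13, FDR = 0.076, and 0.11, FDR = 0.26), and that of Psph also without untreated replicate 2 (0.19, FDR = 0.063). Both were lost with library totals (FDR = 0.072 and 0.073), and Psph with DESeq2 (FDR = 0.054). In Phgdh, 63.1% of 50-base stretches also occur in other genes, most often the gene model Gm7901, so Phgdh reads could be shared.

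Of the 6 amino acid transporter genes, 3 rose and 1 fell in IPO13+/+ ESCs, and 4 rose and 1 fell in IPO13-/- ESCs. Among all tested genes, 11.5% rose and 13.8% fell in IPO13+/+ ESCs, and 14.9% and 14.4% in IPO13-/- ESCs. For the better expressed genes these shares were 15% and 21.3%, and 20.8% and 21.5%. The 1 gene that fell was 16.7% of the transporters, near these shares. Slc6a9 (chr4:117834506-117875198, plus strand), which encodes the glycine transporter GlyT1, had few reads, going from 106 and 117 to 284 and 222 with H2O2 in IPO13+/+ libraries and from 184 and 148 to 198 and 207 in IPO13-/- libraries. As normalised expression these were 1.58 and 1.67 CPM, 4.17 and 3.21 CPM, 2.43 and 2.38 CPM, and 3.06 and 3.35 CPM. The treated groups overlapped between genotypes, and the treated IPO13+/+ libraries were the most spread of the 4 groups. H2O2 raised it by 1.18 on the log2 scale (SE 0.13, FDR = 3e-08) in IPO13+/+, and by 0.98 without treated replicate 1. In IPO13-/- it rose by 0.41 (SE 0.12, FDR = 0.011), a call that was lost without untreated replicate 1 (FDR = 0.11), untreated replicate 2 (FDR = 0.086) or treated replicate 2 (FDR = 0.1). Slc6a9 overlaps B4galt2 and Ccdc24 on the opposite strand, so some of its reads could belong to them.

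Slc7a3 (chrX:101079210-101086020, minus strand), a carrier of arginine and lysine, was the transporter gene that fell. It had 458 and 460 CPM in untreated and 384 and 376 CPM in treated IPO13+/+ libraries, and 456 and 441 CPM in untreated and 392 and 383 CPM in treated IPO13-/- libraries. Treated and untreated libraries did not overlap, and the genotypes lay close together at each state. The log2 fold change was -0.27 (SE 0.04, FDR = 2.4e-06) in IPO13+/+ and -0.21 (SE 0.04, FDR = 8e-05) in IPO13-/-. Slc38a2, the neutral amino acid carrier SNAT2, rose by 0.22 and 0.43 on the log2 scale, with a difference of 0.21 that missed the threshold (FDR = 0.095). Slc3a2, the chain that carries several transporters to the surface, rose by 0.11 and 0.21, and its partner Slc7a5, a leucine carrier, had 0.02 (FDR = 0.78) in IPO13+/+ and rose by 0.13 (FDR = 0.011) in IPO13-/-. The Slc3a2 call in IPO13+/+ was lost without untreated replicate 1 (0.11, FDR = 0.051), treated replicate 1 (0.12, FDR = 0.14) or treated replicate 2 (0.11, FDR = 0.17), and the Slc7a5 call in IPO13-/- without untreated replicate 1 (0.12, FDR = 0.1) or treated replicate 1 (0.12, FDR = 0.09) or with library totals (FDR = 0.057). Slc7a1, a second carrier of basic amino acids, had values of -0.02 and -0.01 and no call.

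The 7 cytosolic tRNA synthetase genes that belong to the ATF4 programme hardly moved with H2O2, with log2 fold changes from -0.11 to 0.06 in IPO13+/+ and from -0.08 to 0.18 in IPO13-/-. Eprs, for glutamate and proline, had 613 and 571 CPM in untreated and 544 and 550 CPM in treated IPO13+/+ libraries, and its fold change of -0.11 passed the test (FDR = 0.038). In IPO13-/- libraries it had 537 and 514 CPM untreated and 502 and 493 CPM treated, with a value of -0.08 (FDR = 0.15). The IPO13+/+ call for Eprs was lost under limma-voom (FDR = 0.053), DESeq2 (FDR = 0.095) and most other settings. Aars, for alanine, rose by 0.18 (FDR = 0.00053) in IPO13-/- and had 0.06 (FDR = 0.3) in IPO13+/+. Of its 50-base stretches, 22.4% are shared with other genes, most often the overlapping gene Exosc6.

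**Figure D2:**
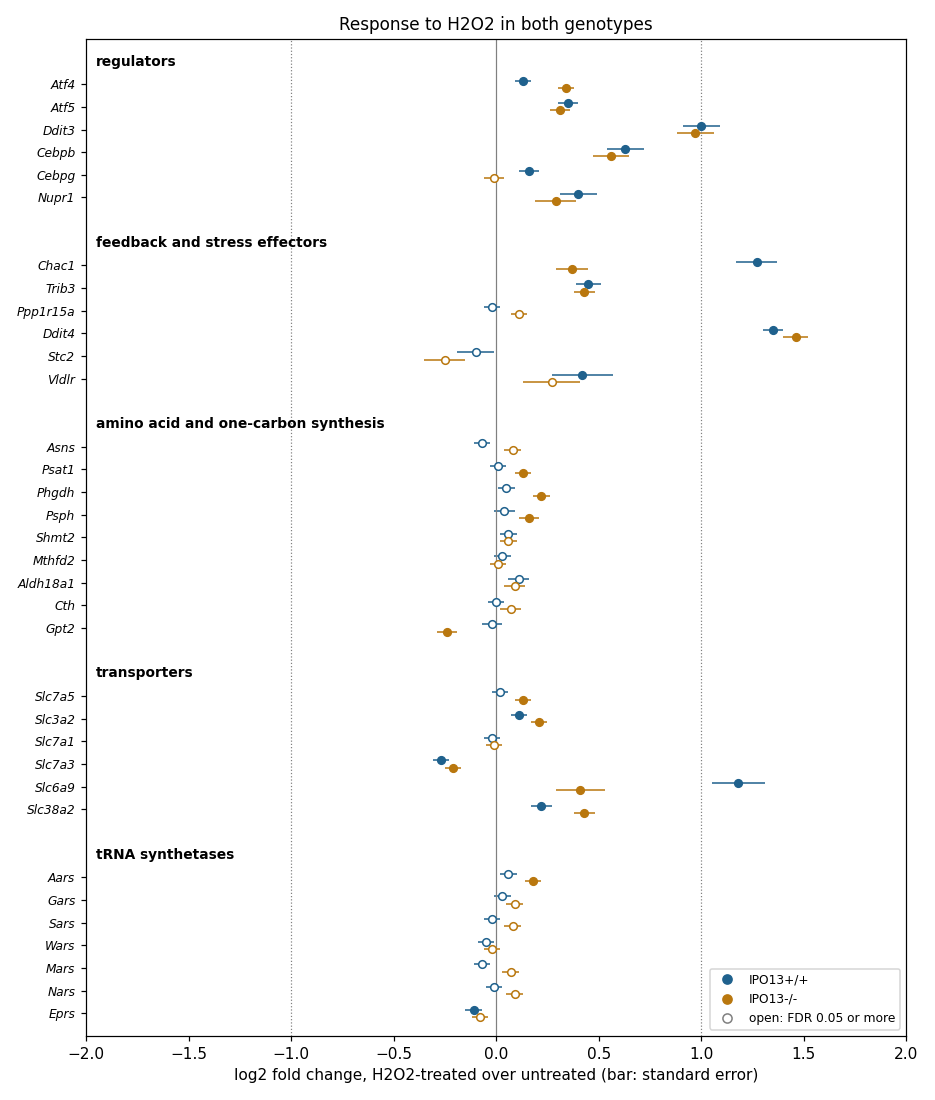
Log2 fold change of H2O2-treated over untreated cells for 34 of the genes, grouped by role, in IPO13+/+ (blue) and IPO13-/- (brown) ESCs. Points are estimates from 2 against 2 libraries, bars are standard errors, open points have an FDR of 0.05 or more, dotted lines mark a 2-fold change and Fgf21 is left out for its low counts. Chac1 and Slc6a9 are the genes whose IPO13+/+ and IPO13-/- points lie farthest apart.

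Whether H2O2 acted differently in the 2 genotypes was tested with an interaction term. It passed an FDR of 0.05 for 2 of the 35 genes, Chac1 and Slc6a9, where 2.71% of all tested genes passed it. Among the better expressed genes, 3.14% had a higher and 1.04% a lower response in IPO13-/- by this test. For Chac1 the response in IPO13-/- was lower by 0.90 on the log2 scale than in IPO13+/+ (interaction -0.90, SE 0.13, FDR = 6.7e-05). It stayed between -1.05 and -0.77 when single libraries were left out, with an FDR of at most 0.03. For Slc6a9 the interaction was -0.77 (SE 0.18, FDR = 0.013), and its call was lost with limma-voom (FDR = 0.1) and DESeq2 (FDR = 0.084). It was also lost without IPO13+/+ treated replicate 1 (-0.57, FDR = 0.15), IPO13-/- untreated replicate 1 (FDR = 0.23) or replicate 2 (FDR = 0.13), or IPO13-/- treated replicate 1 (FDR = 0.063). In both genes the untreated level was higher in IPO13-/- cells, and the untreated IPO13+/+ libraries enter both the response and that difference. Over the 35 genes the interaction had a median of 0.03, against 0.02 for all tested genes. Without IPO13+/+ untreated replicate 2 it was 0.27 for Atf4, 0.31 for Slc38a2 and -0.25 for Gpt2. Without untreated replicate 1 of the same group, Atf4 had 0.14 and Slc38a2 0.11, with no call, and over all single libraries left out their FDR reached 0.39 and 0.53.

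Without treatment, IPO13-/- ESCs had more Chac1 and less of most synthesis genes than IPO13+/+ ESCs. At an FDR below 0.05, 4 of the 35 genes were higher and 17 lower in IPO13-/- cells, where 18.7% of all tested genes were higher and 19.4% lower. Among the better expressed genes these shares were 25% and 28.4%. The median log2 difference (IPO13-/- over IPO13+/+) was -0.13, against 0 for all tested genes. With library totals in place of TMM factors, 7 genes were higher and 11 lower, and the median of all tested genes moved up to 0.065. Only Chac1 was at least 2-fold higher, where 2.86% of all tested genes were, and only Cth was at least 2-fold lower, where 1.84% were.

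Cth (chr3:157894248-157925077, minus strand) encodes cystathionine gamma-lyase, which makes cysteine from cystathionine and so feeds glutathione synthesis. In IPO13+/+ libraries it had 127 and 136 CPM before and 132 and 132 CPM after treatment, against 52.7 and 53.3 CPM in untreated and 55.2 and 56 CPM in treated IPO13-/- libraries. The genotypes were far apart and the treatments close together. The log2 difference between genotypes was -1.31 (SE 0.04, FDR = 1.2e-18) untreated and -1.25 (SE 0.04, FDR = 3.8e-18) treated. H2O2 changed Cth by 0.00 (FDR = 1) in IPO13+/+ and 0.07 (FDR = 0.29) in IPO13-/- on the log2 scale. Without treatment, Chac1 was 1.41 higher on the log2 scale (SE 0.10, FDR = 3.8e-12) in IPO13-/- cells, so the gene for a glutathione-degrading enzyme was higher and that for a cysteine-making enzyme lower in the same libraries.

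Of the 9 synthesis genes, 7 were lower in untreated IPO13-/- cells and 1, Aldh18a1 for proline synthesis, was higher by 0.18 on the log2 scale. In this comparison 19.4% of all tested genes were lower and 18.7% higher, and 28.4% and 25% of the better expressed genes. Beside Cth, the log2 difference was -0.35 for Asns, -0.35 for Shmt2 (mitochondrial serine to glycine conversion), -0.24 for Psat1, -0.23 for Phgdh, -0.18 for Psph and -0.13 for Mthfd2 (mitochondrial folate enzyme). Asns had 292 and 311 CPM in untreated IPO13-/- libraries, both under the 389 and 378 CPM of the IPO13+/+ libraries. Of the 7 synthetase genes, 4 were lower (Gars, Sars, Nars and Eprs, from -0.22 to -0.14) and 3 did not pass the test. Among the regulators, Atf5 (-0.40, FDR = 5e-07), Nupr1 (-0.32, FDR = 0.0076) and Atf4 (-0.12, FDR = 0.022) were lower, and the Atf4 call was lost with library totals (-0.04, FDR = 0.52) and when single libraries were left out, with an FDR of up to 0.3. Without 1 or another library, Nupr1 (FDR up to 0.16), Psph (0.14), Mthfd2 (0.15), Sars (0.13) and Eprs (0.067) also missed the threshold, with log2 differences of the same sign. With library totals, Psph (-0.10, FDR = 0.14), Mthfd2 (-0.05, FDR = 0.42), Sars (-0.06, FDR = 0.23) and Eprs (-0.09, FDR = 0.074) missed it too.

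Among the effectors, Ddit4 was lower by 0.57 on the log2 scale (difference -0.57, SE 0.06, FDR = 5.3e-09) in untreated IPO13-/- cells, and Ppp1r15a was lower as well (-0.16, FDR = 0.0034), a call lost with library totals (FDR = 0.14) and without IPO13-/- untreated replicate 1 (FDR = 0.054). Trib3 was higher (0.34, FDR = 1.3e-05), at 33.8 and 34.4 CPM against 25.1 and 28.6 CPM. The 2 effectors higher in untreated IPO13-/- cells, Chac1 and Trib3, thus stood beside a lower Ddit4, so the direction differed within the group. Of the transporters, Slc6a9 was higher (0.57, SE 0.14, FDR = 0.0014) and Slc38a2 lower (-0.28, FDR = 3.3e-05), with 305 and 301 CPM against 392 and 343 CPM. The other 4 transporter genes lay between -0.07 and 0.07 and did not pass the test.

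After H2O2, 4 of the 35 genes were higher and 13 lower in IPO13-/- than in IPO13+/+ cells, where 19.1% of all tested genes were higher and 17.5% lower (26.5% and 24.5% of the better expressed genes), and the median log2 difference was -0.07. Only Cth passed the 2-fold limit, on the lower side, where 1.98% of all tested genes did. Chac1 remained higher, by 0.50 (SE 0.08, FDR = 1.2e-05), together with Trib3 (0.32), Aldh18a1 (0.16) and Slc3a2 (0.17). Atf5 (-0.44), Nupr1 (-0.44), Cebpg (-0.22), Ddit4 (-0.46) and Stc2 (-0.35) were lower. Of the synthesis genes, 6 were lower, among them Shmt2 (-0.34), Gpt2 (-0.34) and Asns (-0.20). Gars (-0.16) and Eprs (-0.14) were lower among the synthetases. Without 1 or another library, Stc2 (FDR up to 0.27), Psat1 (0.087), Mthfd2 (0.077), Aldh18a1 (0.15) and Eprs (0.076) missed the threshold, with differences of the same sign. Slc6a9, which was higher in IPO13-/- cells before treatment, had a difference of -0.21 (FDR = 0.16) after it.

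**Figure D3:**
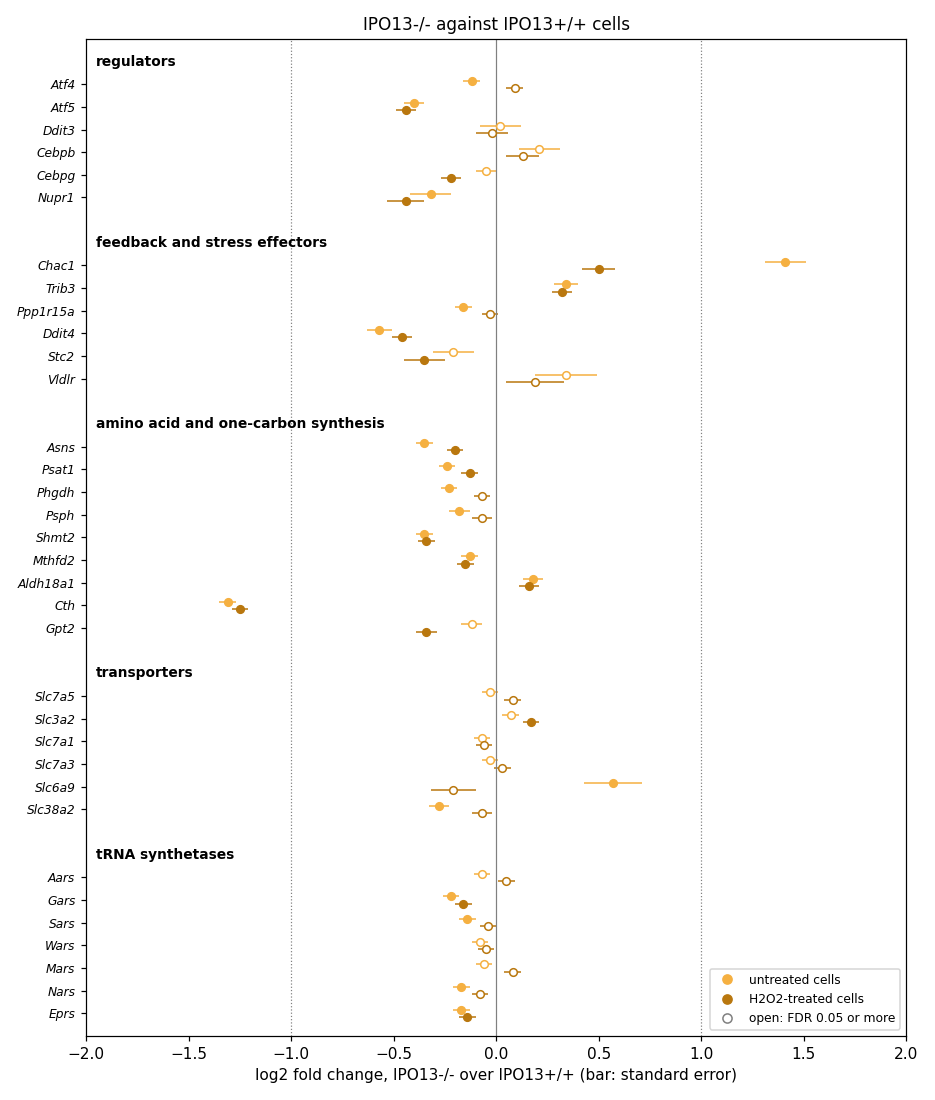
Log2 difference of IPO13-/- over IPO13+/+ cells for 34 of the genes, grouped by role, untreated (light) and after H2O2 (dark). Points are estimates from 2 against 2 libraries, bars are standard errors, open points have an FDR of 0.05 or more, dotted lines mark a 2-fold difference and Fgf21 is left out. Cth lies at -1.31 and -1.25, and Chac1 moves from 1.41 untreated to 0.50 after H2O2.

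Other genes of the pathway were counted in further lists, together with genes beside it, namely mitochondrial tRNA synthetases and endoplasmic reticulum chaperones. These 5 further lists are to be read against the shares of other genes. Of all tested genes, 11.5% were higher and 13.8% lower after H2O2 in IPO13+/+ ESCs, and 14.9% and 14.4% in IPO13-/- ESCs. Among the better expressed genes these shares were 15% and 21.3%, and 20.8% and 21.5%. Of 25 other genes known as ATF4 targets, 10 were higher and 3 lower after H2O2 in IPO13+/+ ESCs (median log2 fold change 0.09), and 12 were higher and 2 lower in IPO13-/- ESCs (median 0.11). Atf3, a transcription factor of the same family, rose from 2.43 and 2.78 CPM to 11.1 and 10.6 CPM in IPO13+/+ libraries and from 2.77 and 2.82 CPM to 8.28 and 9.08 CPM in IPO13-/- libraries. Its log2 fold changes were 2.05 (SE 0.09, FDR = 2.7e-16) and 1.63 (SE 0.09, FDR = 4e-14), and the difference missed the threshold (-0.42, FDR = 0.087). Gdf15, a stress hormone, rose by 1.06 (FDR = 2.9e-06) and 0.58 (FDR = 0.0049), with no call on the difference (FDR = 0.27). For 4 of the 25 genes, named here after their values were seen, the difference between the responses passed the test. Of all tested genes, 2.71% passed it. Among the better expressed genes, 3.14% had a higher and 1.04% a lower response in IPO13-/-. The response was higher in IPO13-/- for Sqstm1 (difference 0.58, FDR = 5.3e-07), Map1lc3b (0.30, FDR = 0.0032) and Tnfrsf10b (0.26, FDR = 0.044). It was lower for Adm2 (-1.03, FDR = 0.036), which had 0.614 to 1.32 CPM. Calls of single genes in the 5 further lists were not checked with other tools or with libraries left out.

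Of 16 genes of the eIF2 machinery, 1 was higher and 4 lower in IPO13+/+ ESCs (median -0.08), and 2 were higher and 0 lower in IPO13-/- ESCs (median -0.01). Impact, which encodes an inhibitor of the amino acid sensing kinase GCN2, was higher in both, by 0.23 (FDR = 0.00027) and 0.64 (FDR = 7.9e-12). Its level went from 142 and 130 CPM to 159 and 160 CPM in IPO13+/+ libraries and from 119 and 119 CPM to 191 and 179 CPM in IPO13-/- libraries, and the difference of 0.41 passed the test (FDR = 0.00025). The difference also passed for Eif2s2, which encodes a subunit of eIF2 (0.19, FDR = 0.023), with log2 fold changes of -0.19 in IPO13+/+ and 0.01 in IPO13-/-. These were 2 of the 16 genes, where 2.71% of all tested genes passed that test. Of 13 other cytosolic tRNA synthetase genes, 1 was higher in each genotype, which was Cars (0.28 and 0.37), and 4 were lower in IPO13+/+ and 0 in IPO13-/- ESCs. Of 17 mitochondrial synthetase genes, 2 were higher and 4 lower in IPO13+/+ ESCs and 1 was higher and 4 lower in IPO13-/- ESCs, with Lars2 higher in both (0.17 and 0.46). Lars2 had 990 and 1200 CPM in untreated and 1210 and 1260 CPM in treated IPO13+/+ libraries, so the untreated ones lay far apart. In IPO13-/- libraries it had 779 and 878 CPM untreated and 1150 and 1140 CPM treated. Iars2, the next highest of this list, had 107 CPM in both untreated IPO13+/+ libraries.

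Of 18 genes of endoplasmic reticulum chaperones and the unfolded protein response, 3 were higher and 9 lower in IPO13+/+ ESCs (median -0.11), and 3 were higher and 8 lower in IPO13-/- ESCs (median -0.08). As shares, 16.7% of this list were higher in each genotype, and 50% and 44.4% were lower. By the interaction test the response was higher in IPO13-/- for 1 gene of this list and lower for 1. Xbp1, a transcription factor of that response, fell by 0.40 on the log2 scale (FDR = 1.3e-06) in IPO13+/+ and by 0.61 (FDR = 1.7e-09) in IPO13-/- ESCs. Between the genotypes without treatment, 6 of the other ATF4 targets were higher and 9 lower, 2 of the eIF2 genes were higher and 7 lower, 1 of the other cytosolic synthetase genes was higher and 4 lower, 2 of the mitochondrial synthetase genes were higher and 4 lower, and 1 of the chaperone genes was higher and 5 lower, where 18.7% of all tested genes were higher and 19.4% lower. After H2O2 these counts were 6 and 9, 5 and 2, 3 and 1, 1 and 3, and 2 and 5 in the same order, where 19.1% and 17.5% of all tested genes were. Among the better expressed genes, the shares higher and lower were 25% and 28.4% untreated, and 26.5% and 24.5% after H2O2. No gene of the 5 lists was 2-fold apart between the genotypes and past the test.

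**Figure D4:**
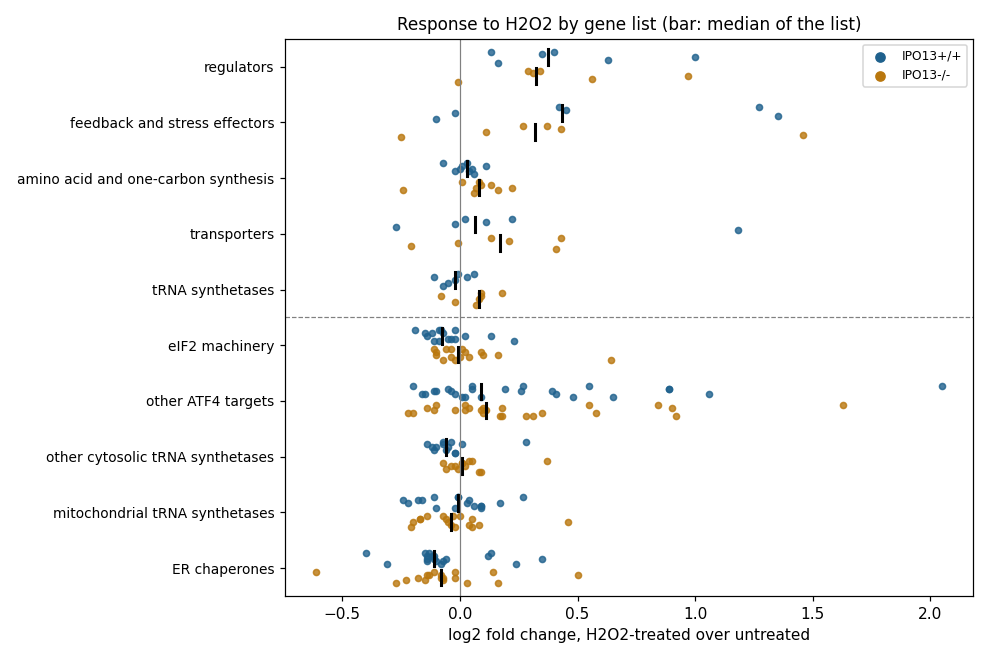
Log2 fold change of H2O2-treated over untreated cells for each gene of the 5 role groups (above the dashed line) and the 5 further lists (below it), in IPO13+/+ (blue) and IPO13-/- (brown) ESCs. Points are genes, vertical bars are list medians and Fgf21 is left out. The medians of the regulators (0.37 and 0.32) and the effectors (0.43 and 0.32) lie to the right of 0, and those of the chaperones (-0.11 and -0.08) to its left.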

How the data were processed

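RNA-seq libraries of IPO13+/+ and IPO13-/- ESCs were compared in 4 groups of 2. Per the submitters' processing notes, which name bcl2fastq, STAR 2.3.1, HTSeq and limma, reads were mapped to mm10, and the authors deposited raw counts per gene and CPM values (counts scaled to the library total). The annotation and strand setting are not given in the sources used here, and labels and Methods differ on the sequencer and read length. All tests used the counts. The deposited CPM values served as a check (largest difference 5e-04).

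Genes with at least 1 read in any library (19424 of 23420) were normalised with TMM factors and fitted with edgeR 4.0.16 (R 4.3.3) by the quasi-likelihood method in 1 model of 8 libraries without a block. P-values were adjusted by Benjamini-Hochberg over all tested genes. Calls at 2-fold also needed an FDR below 0.05, and the interaction was judged by the FDR alone. For standard errors, each log2 fold change was divided by the root of its F statistic. The biological coefficient of variation was 3.36%. With 2 against 2 libraries an exact permutation test cannot go below 0.333, so calls rest on the spread pooled over genes and groups. The detection limit of 3 reads (0.0407 to 0.0497 CPM) covers counting error only.

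Alternatives were limma-voom (limma 3.58.1), DESeq2 1.42.0, library totals in place of TMM, relative log expression factors, filterByExpr, the replicate number as a block, fits of only the libraries compared, and each library left out in turn with the spread pooled over the remaining 7, in which the lone library of a group is assumed to vary like the other groups. Gene positions, overlaps and shared 50-base stretches came from GENCODE M21 (GRCm38), which matched all 35 genes, and promoter sequences from RefSeq (GRCm38.p6). No window was at hand for Slc7a3, Nars, Slc7a5, Wars, Mars and Cth.

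The genes and lists were chosen with earlier results of these data known. Values of every library are given for Atf4, Atf5, Ddit3, genes called in any pairwise comparison, genes with an interaction of at least 0.5 past the test, and the 2 largest significant falls per H2O2 comparison. Of a further list at most 3 called genes are named, or else the gene with the lowest FDR. Further values were picked to describe each role and after they were seen.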

Additional observations from a re-analysis of the deposited data

Results flagged for a closer look

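In 2 of the 35 genes the response to H2O2 differed between the genotypes by the interaction test. This test was passed by 2.71% of all tested genes, some of them in the further lists. For Chac1, the log2 response in IPO13-/- minus that in IPO13+/+ was -0.90 (FDR = 6.7e-05), and both treated libraries exceeded both untreated libraries in each genotype. For Slc6a9 it was -0.77 (FDR = 0.013), on 106 to 284 reads per library, and the call did not hold under limma-voom or DESeq2.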

How the results depend on the processing

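No value changed sign together with its call under any alternative. Members that were 2-fold higher with H2O2 numbered 4 in IPO13+/+ ESCs and 2 to 4 with 1 library left out (2 without treated IPO13+/+ replicate 1), and 1 in IPO13-/- ESCs and 1 to 2 with 1 library left out. The 2 members lower in IPO13+/+ ESCs at an FDR below 0.05 became 1 with limma-voom, DESeq2, relative log expression factors, library totals, filterByExpr and only the libraries compared, and 1 to 2 with 1 library left out. With library totals, those lower with H2O2 in IPO13-/- ESCs became 4 in place of 2, and those higher and lower in untreated IPO13-/- against IPO13+/+ cells became 7 and 11 in place of 4 and 17. The median log2 values of all tested genes were then -0.019 and 0.065 in these 2 comparisons, against 0 in both with TMM. Genes with a different H2O2 response became 1 in place of 2 with limma-voom and with DESeq2, and 1 to 5 with 1 library left out. The other counts stayed within 1.5 times their value. Cth untreated stayed between -1.36 and -1.23 and treated between -1.26 and -1.24 over all alternatives.

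The labels number the 2 libraries of each group, and nothing says that a number marks a shared day or culture. Deviations of libraries with the same number correlated between -0.08 and 0.61 over 9077 genes for the 6 pairs of groups, so pairing was not established. With the replicate number as a block, 7 genes in place of 2 had a different H2O2 response: Chac1, Slc6a9, Atf4, Asns, Phgdh, Gpt2 and Slc38a2. Over all 19424 tested genes, 1291 passed the interaction test with the block and 527 without it, so calls rose in general.

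At 1.58 to 4.17 CPM for Slc6a9 and 1.1 to 1.84 CPM for Vldlr, few reads limit the precision, and Fgf21 was not measurable at this depth.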
